A study of Mus musculus with 6 samples.

Results

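The sorting nexins and the Vps genes of mouse skin were taken from the deposited table by symbol: every row named Snx or Vps followed by a number, with at most 1 letter after the number for Vps. The rule gave 64 of 18939 genes, 30 sorting nexins and 34 Vps genes. The members were chosen by their symbols alone, with no measured value in the rule, but the 2 families were selected on a view of these data that included the FPKM differences between the groups. Those differences are therefore given as a description, and nothing is read from their counts. The skin came from 2 groups of 3 libraries each. The CKO group (replicates 1, 2 and 5) is labelled as lacking VAMP7 in basophils, and the FLOX group (replicates 2, 3 and 5), so titled, has a wild-type genotype label. By the title of the series the mice stand for an MC903-OVA model. The compound MC903, also called calcipotriol, mimics vitamin D and inflames skin when applied to it, and OVA usually stands for the antigen ovalbumin. The labels used here state no strain, age, Cre driver or number of animals behind each library. The values are FPKM, fragments scaled to gene length and to all mapped fragments of the library, which can be set side by side between genes because they are scaled to length.

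Sorting nexins are proteins with a PX domain, a fold that in most of them binds phosphoinositide lipids of endosomes. Vps genes carry the names of yeast mutants that missorted proteins bound for the vacuole, and most encode subunits of complexes that coat, cut or tether endosomal membranes. Retromer, built from Vps35, Vps29 and a Vps26 subunit, returns receptors from endosomes to the Golgi or the cell surface together with several sorting nexins. VAMP7, a SNARE of late endosomes, lysosomes and secretory granules, meets this machinery through the adaptor VARP (gene Ankrd27), which binds both VAMP7 and Vps29, and through the HOPS tether, which acts in the fusion of late endosomes with lysosomes.

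Promoter windows of RefSeq (build GRCm38.p6, 250 bases before to 50 after a transcript start) were found for 43 of the 64 genes by gene ID, 21 sorting nexins and 22 Vps genes. The sequences below are shown because CACGTG, the E-box core of the element through which TFEB acts on lysosomal genes, and its extension TCACGTGA were searched in them. Both motifs read the same on both strands, and each TCACGTGA holds a CACGTG. Capitals mark TCACGTGA where it is present and CACGTG elsewhere.
Vps16, GRCm38.p6 chr2:130424070-130424369, plus strand: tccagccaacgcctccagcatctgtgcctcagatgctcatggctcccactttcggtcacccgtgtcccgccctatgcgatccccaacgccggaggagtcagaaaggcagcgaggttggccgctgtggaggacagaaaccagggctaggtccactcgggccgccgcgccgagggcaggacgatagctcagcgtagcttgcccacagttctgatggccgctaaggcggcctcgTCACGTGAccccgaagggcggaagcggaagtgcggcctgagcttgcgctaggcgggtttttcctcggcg
Vps33a, GRCm38.p6 chr5:123572966-123573265, minus strand: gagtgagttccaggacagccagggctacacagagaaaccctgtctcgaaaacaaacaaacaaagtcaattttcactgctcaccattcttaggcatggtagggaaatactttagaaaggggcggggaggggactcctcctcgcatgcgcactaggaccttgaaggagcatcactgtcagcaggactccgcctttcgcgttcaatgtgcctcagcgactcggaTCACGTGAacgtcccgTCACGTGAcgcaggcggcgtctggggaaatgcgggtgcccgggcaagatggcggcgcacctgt
Vps26a, GRCm38.p6 chr10:62486756-62487055, minus strand: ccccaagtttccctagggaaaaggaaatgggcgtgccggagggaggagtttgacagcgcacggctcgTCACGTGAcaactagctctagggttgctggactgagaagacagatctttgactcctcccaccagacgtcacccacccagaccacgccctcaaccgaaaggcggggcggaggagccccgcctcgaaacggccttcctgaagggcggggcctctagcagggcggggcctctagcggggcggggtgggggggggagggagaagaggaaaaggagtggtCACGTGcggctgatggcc
Snx8, GRCm38.p6 chr5:140389259-140389558, minus strand: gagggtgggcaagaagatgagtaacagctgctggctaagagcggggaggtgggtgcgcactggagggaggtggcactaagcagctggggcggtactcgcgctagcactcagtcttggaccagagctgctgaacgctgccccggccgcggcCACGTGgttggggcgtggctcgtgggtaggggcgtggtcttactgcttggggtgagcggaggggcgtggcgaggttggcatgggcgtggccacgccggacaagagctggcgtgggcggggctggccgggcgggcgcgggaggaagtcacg
Snx5, GRCm38.p6 chr2:144270523-144270822, minus strand: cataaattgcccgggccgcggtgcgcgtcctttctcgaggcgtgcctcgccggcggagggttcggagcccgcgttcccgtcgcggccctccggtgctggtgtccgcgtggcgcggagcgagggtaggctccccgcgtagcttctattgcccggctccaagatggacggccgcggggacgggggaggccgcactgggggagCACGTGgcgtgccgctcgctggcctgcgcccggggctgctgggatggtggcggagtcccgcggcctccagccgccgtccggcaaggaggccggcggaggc

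TCACGTGA stood in the windows of 3 of the 22 Vps genes (13.6%), Vps16, Vps33a and Vps26a, and of 0 of the 21 sorting nexins, against 1.12% of 27025 genes with a window. CACGTG stood in 4 Vps genes (18.2%; Vps50 in addition to these 3) and in 3 sorting nexins (14.3%; Snx5, Snx8 and Snx18), against 8.09% of all genes. Those 27025 genes were taken whether or not skin expresses them. They were not matched to the members in level or base composition. Vps16 and Vps33a encode adjoining subunits of the core that HOPS and CORVET share. In Vps33a the motif occurred in 2 copies, whose CACGTG began at positions -28 and -12 from the transcript start, and in Vps16 at -18. The other start of Vps26a that RefSeq lists has a window that also holds TCACGTGA, at a different site. The motifs were chosen after the sequences had been looked at, and a match is a description of letters, not of a bound site.

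Both families were expressed at like levels in skin, but a few sorting nexins stood far above the rest. Of the 64 genes, 62 reached the filter for testing, 1 FPKM in at least 3 libraries. Snx31, a FERM sorting nexin known from the urothelium, was listed at 0 in all 6 libraries. Vps37d, an ESCRT-I subunit, averaged 1.11 ± 0.319 FPKM in CKO against 0.860 ± 0.0889 FPKM in FLOX (SD over n = 3 libraries, as in all such values) and was not tested. The median member averaged 12.2 FPKM over the 6 libraries among 29 tested sorting nexins and 14.5 FPKM among 33 tested Vps genes, against 10.6 FPKM for all 12994 tested genes. Tested sorting nexins ran from 1.31 FPKM (Snx22) to 205 FPKM (Snx5), and tested Vps genes from 2.55 FPKM (Vps13c) to 102 FPKM (Vps35). The 3 most abundant sorting nexins were Snx5, Snx2 and Snx3, and the 3 most abundant Vps genes were Vps35, Vps25 and Vps28.

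In the comparison of CKO with FLOX skin the families, which were selected with these differences in view, differed in their range. Log2 differences (CKO minus FLOX, on log2(FPKM + 1)) ran from -0.81 to 0.35 in the sorting nexins, with 21 of 29 negative and a median of -0.10. In the Vps genes they ran from -0.17 to 0.23, with 17 of 33 negative and a median of -0.01. Of all 12994 tested genes 5705 were negative and 7289 positive, and the median was 0.03. Every tested Vps gene stayed within 0.25 of 0, whereas 10 of 29 sorting nexins (34.5%) lay at or beyond 0.25, against 25.5% of tested genes. Past the threshold of the limma fit across all genes (Benjamini-Hochberg adjusted p under 0.05) was 1 sorting nexin, Snx20, and 0 Vps genes, where 0.954% of tested genes passed in either direction and 0.6% passed as lower in CKO. At an unadjusted p under 0.05 there were 11 sorting nexins and 1 Vps gene (Vps26b), or 37.9% and 3.03% of the tested members, against 21.6% of all tested genes. The 11 sorting nexins became 6 (20.7%, against 15.8% of all genes in that fit) without CKO replicate 2 and 7 (24.1%, against 15.4%) without FLOX replicate 2.

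**Figure D1:**
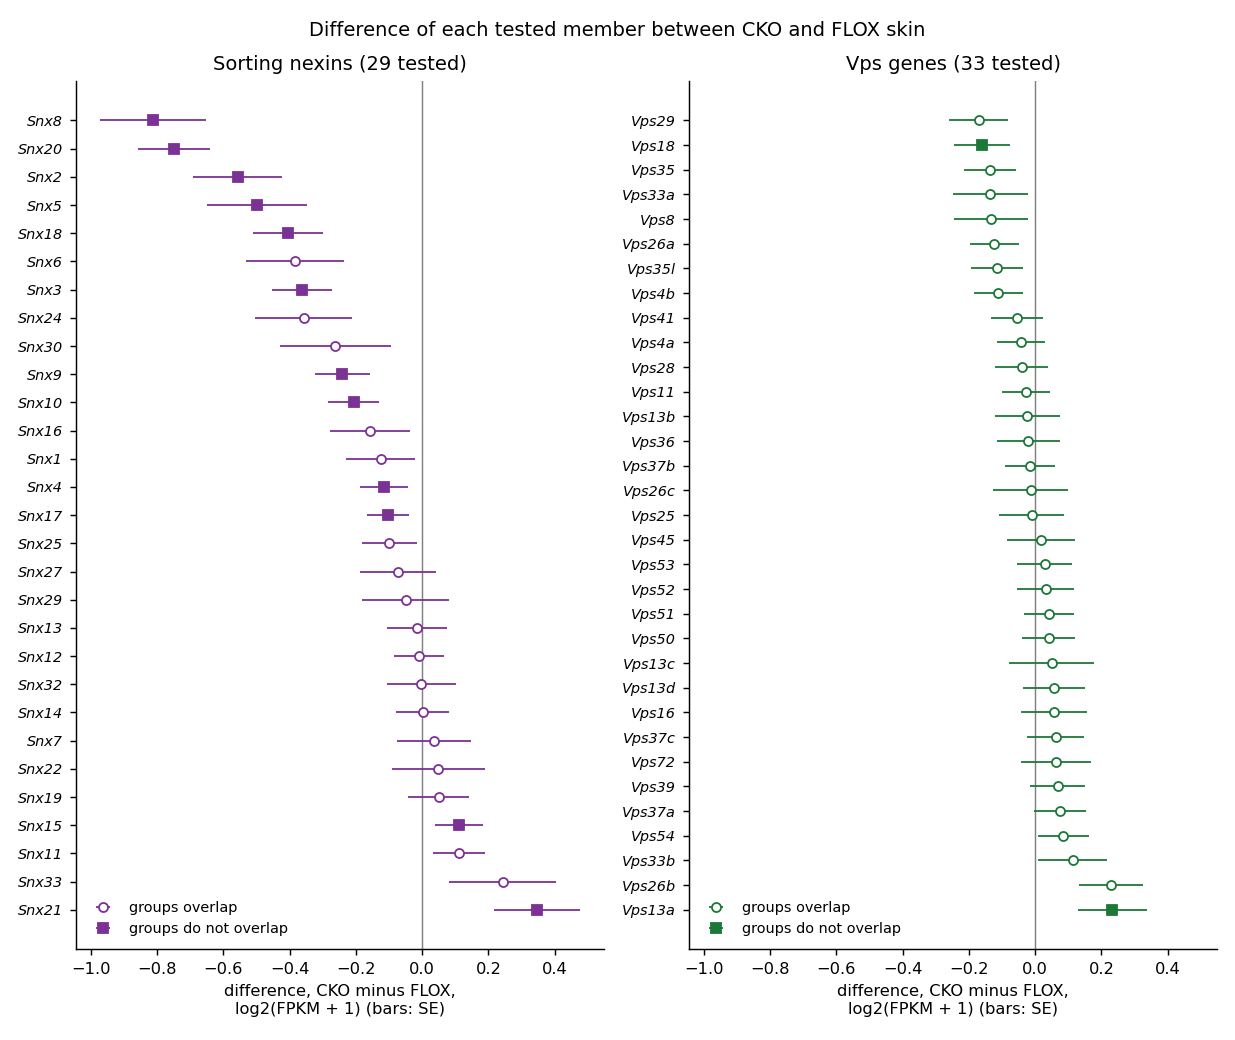
Difference of each tested member between CKO and FLOX skin on log2(FPKM + 1), sorting nexins on the left and Vps genes on the right, ranked by size. Points are the limma estimates, bars their SE, and filled squares mark genes whose 3 CKO and 3 FLOX values do not overlap. Sorting nexins reach from -0.81 (Snx8) to 0.35 (Snx21), and Vps genes from -0.17 (Vps29) to 0.23 (Vps13a).

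The groups did not overlap, with all CKO values lower, in 10 of 29 sorting nexins (34.5%) and 1 of 33 Vps genes (3.03%), against 11.4% of tested genes. With all CKO values higher the counts were 2 sorting nexins (Snx15 and Snx21) and 1 Vps gene (Vps13a), against 15.5% of tested genes. The 10 were Snx2, Snx3, Snx4, Snx5, Snx8, Snx9, Snx10, Snx17, Snx18 and Snx20, and the Vps gene was Vps18.

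Snx20 (NCBI Gene ID 71607), whose PX domain protein binds the cytoplasmic tail of the leukocyte adhesion ligand PSGL-1 and carries it to endosomes, fell. It measured 17.21, 13.28 and 15.8 FPKM in CKO replicates 1, 2 and 5 and 27.83, 24.14 and 27.61 FPKM in FLOX replicates 2, 3 and 5. The highest CKO value lay well below the lowest FLOX value. The means were 15.4 ± 1.99 and 26.5 ± 2.07 FPKM, a level 41.8% lower in CKO (log2 difference -0.75, SE 0.11, limma adjusted p = 0.047). The adjusted p ran from 0.038 to 0.162 over the 15 alternatives and passed in 7 of them, and it was 0.0947 without CKO replicate 2, 0.162 without FLOX replicate 2, 0.0653 without FLOX replicate 3 and 0.102 without FLOX replicate 5.

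General leukocyte markers were lower in the same CKO libraries. All 15 tested genes of that list had negative differences, against 5705 of all 12994 tested genes, and the median was -0.51. Vav1 and Cd53 fell (limma adjusted p = 0.047 for each), where 0.6% of tested genes passed as lower in CKO. Both calls were lost without CKO replicate 2 and without any 1 of the FLOX libraries, where adjusted p-values of Cd53 ran from 0.0755 to 0.162 and those of Vav1 from 0.079 to 0.162, and Vav1 also missed without CKO replicate 1 (0.0547). The summed level of the list ran from 1562 to 2110 FPKM in the CKO and from 2600 to 2988 FPKM in the FLOX libraries, with no gene at 0 in all libraries. Ptprc, which encodes the pan-leukocyte protein CD45, measured 34.4 ± 1.43 and 47.3 ± 3.30 FPKM. Fewer leukocytes and less Snx20 RNA per leukocyte cannot be told apart in RNA of whole skin, here or for any gene below. The part of leukocyte content in the levels of Snx20 and the other sorting nexins was not tested.

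Snx21, its close relative with the same PXB domain, had the opposite sign. It measured 9.18, 8.23 and 7.91 FPKM in the CKO and 5.21, 7.58 and 6.62 FPKM in the FLOX libraries. All CKO values lay above all FLOX values, with means of 8.44 ± 0.661 and 6.47 ± 1.19 FPKM (log2 difference 0.35, SE 0.13), and the gene did not pass. The difference was 0.22 without FLOX replicate 2.

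The SNX-BAR group holds the sorting nexins with a membrane-bending BAR domain, and 10 of its 12 members had negative differences, with a median of -0.25 and none past the threshold. Snx8, which acts in transport from endosomes to the Golgi, had the most negative difference of all members, a place that Snx20 took without CKO replicate 2 (-0.65 against -0.61 for Snx8). Its values were 32.44, 21.43 and 33.64 FPKM in the CKO and 53.17, 49.6 and 50.35 FPKM in the FLOX libraries. The FLOX libraries were close together, and CKO replicate 2 stood below the other two. The means were 29.2 ± 6.73 and 51.0 ± 1.88 FPKM (log2 difference -0.81, SE 0.16). Snx8 did not pass with all libraries but did so without CKO replicate 5 (limma adjusted p = 0.0426), as Snx2 also did (0.0447). Snx8 spanned adjusted p-values from 0.0426 to 0.167 over the alternatives, and Snx2 from 0.0447 to 0.314.

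Snx1, Snx2, Snx5 and Snx6 form the dimers, 1 or 2 with 5 or 6, that work with retromer or alone on tubules leaving the endosome. Snx2 measured 136.17, 115.05 and 160.5 FPKM in the CKO and 211.6, 213.45 and 178.48 FPKM in the FLOX libraries. Its lowest FLOX library, replicate 5, stood above its highest CKO library, also numbered 5. The log2 difference was -0.56 (SE 0.13). Snx5 measured 185.98, 140 and 183.48 FPKM in the CKO and 231.54, 281.58 and 207.64 FPKM in the FLOX libraries, again without overlap (log2 difference -0.50, SE 0.15). Snx6 averaged 65.4 ± 7.84 and 86.3 ± 16.3 FPKM, and its groups overlapped. Snx1 averaged 57.4 ± 2.34 and 63.0 ± 8.53 FPKM (log2 difference -0.12, SE 0.10), and its groups also overlapped.

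**Figure D2:**
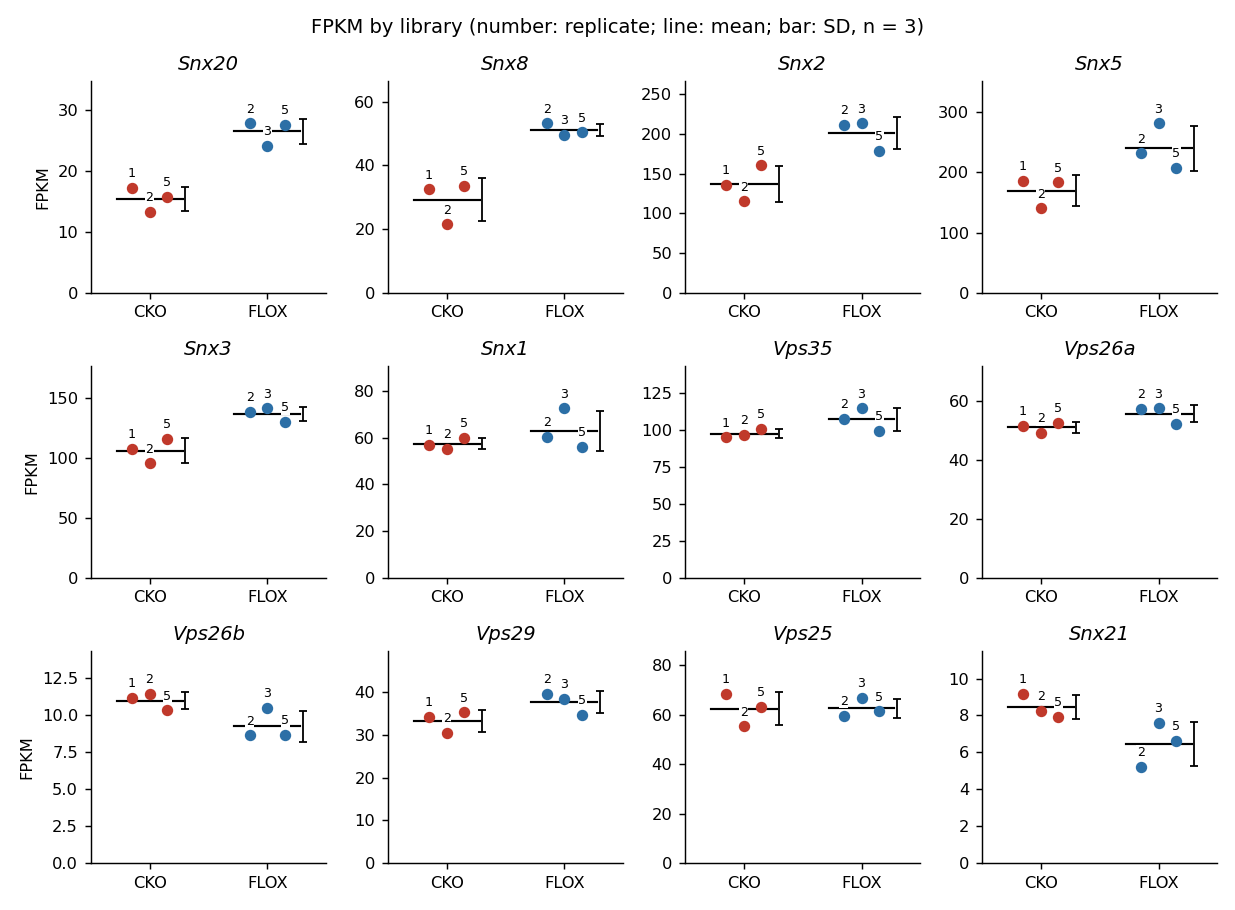
FPKM in each library for 12 members, with CKO and FLOX on the horizontal axis and FPKM from 0 on the vertical axis. Points are libraries labelled by replicate number, lines are group means and bars are SD (n = 3). Snx20, Snx8, Snx2, Snx5 and Snx3 have every CKO value below every FLOX value and Snx21 the reverse, while Snx1, the 4 retromer genes and Vps25 overlap.

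Among the other BAR members, Snx9, Snx18 and Snx33 carry an SH3 domain and take part in endocytosis with dynamin. Snx18 averaged 17.3 ± 1.22 FPKM in the CKO and 23.3 ± 2.95 FPKM in the FLOX libraries, and Snx9 55.1 ± 4.57 and 65.2 ± 2.36 FPKM, both without overlap. Snx33 had a higher mean in CKO skin. It measured 3.76, 4.78 and 2.94 FPKM in the CKO and 2.68, 3.69 and 2.79 FPKM in the FLOX libraries, where only FLOX replicate 3 lay inside the CKO range, and the log2 difference of 0.24 was 0.10 without CKO replicate 2. Snx4, which acts in recycling and autophagy, averaged 36.8 ± 2.27 and 39.9 ± 0.218 FPKM, while its dimer partners Snx7 (14.9 ± 0.846 and 14.6 ± 2.09 FPKM) and Snx30 (4.86 ± 0.577 and 6.12 ± 1.69 FPKM) overlapped. Snx32, a relative of Snx5 and Snx6, was low in both groups, with log2 difference 0.00.

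Sorting nexins without a BAR, FERM or RGS-type domain held both signs, with 7 of 11 differences negative, a median of -0.05 and Snx20 past the threshold. Snx3, which recruits retromer to endosomes and is needed for recycling of the Wnt carrier Wls, measured 107.19, 95.38 and 115.65 FPKM in the CKO and 138.06, 141.2 and 129.94 FPKM in the FLOX libraries. The groups were apart (log2 difference -0.36, SE 0.09). Its close relative Snx12 was the same in both to within its spread, at 23.5 ± 1.13 and 23.6 ± 1.08 FPKM. Snx10, known for its part in the acid-secreting osteoclast, averaged 22.0 ± 0.830 and 25.5 ± 1.66 FPKM without overlap. Snx11, which sends the keratinocyte channel Trpv3 to degradation, measured 12.01, 13.01 and 12.96 FPKM in the CKO and 12.36, 11.55 and 11.04 FPKM in the FLOX libraries, with overlap. Snx15 averaged 10.5 ± 0.307 and 9.63 ± 0.155 FPKM, a small gap without overlap. The other 5 members, Snx16, Snx22, Snx24, Snx29 and Snx21, lay between 1.31 and 9.15 FPKM over all libraries, and of these only Snx21 was without overlap.

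The FERM and RGS-type sorting nexins differed little. Snx17, the adaptor that hands integrins and lipoprotein receptors to retriever, was steady within each group, at 45.66, 45 and 45.81 FPKM in the CKO and 49.28, 48.62 and 48.99 FPKM in the FLOX libraries. The gap between its groups was small, with a log2 difference of -0.10 (SE 0.06). Snx27, which links cargo with PDZ ligands to retromer, averaged 9.17 ± 0.936 and 9.71 ± 1.28 FPKM. Snx13, Snx14, Snx19 and Snx25, proteins of contact sites between the endoplasmic reticulum and other organelles or lipid droplets, had differences from -0.10 to 0.05, and all overlapped.

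In both families the signed difference was more negative at higher levels. Among the 14 tested sorting nexins above the family's median level, 13 differences were negative, the median was -0.30, and all 10 genes with every CKO value lower were here. Among the 15 at or below it, 8 were negative and the median was 0.00. Spearman's rho between mean level and difference was -0.61 over the 29 sorting nexins, -0.48 over the 33 Vps genes and -0.23 over all 12994 tested genes. Genes of these libraries share their samples and scaling, so these are descriptions. In the Vps genes the signs also went with the level, with 13 of 16 negative above the Vps median and 4 of 17 at or below it. Their differences were smaller than those of the abundant sorting nexins: among the 16 above the Vps median they had a median of -0.03 and a lowest value of -0.17.

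**Figure D3:**
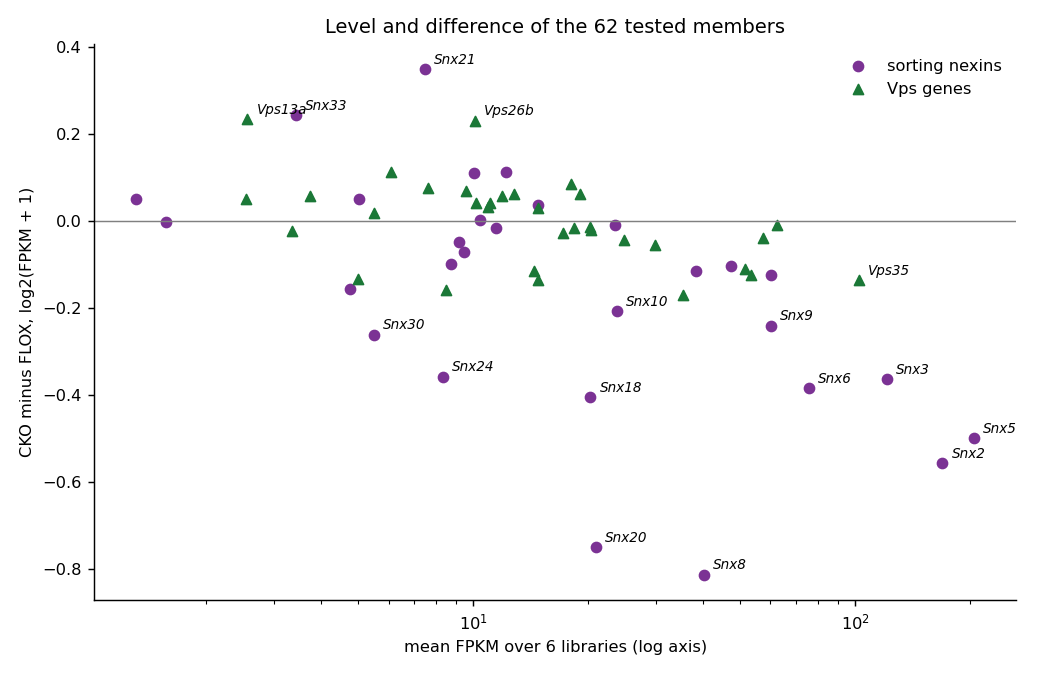
Mean FPKM over the 6 libraries (log axis) against the CKO minus FLOX difference on log2(FPKM + 1) for the 62 tested members, with circles for sorting nexins and triangles for Vps genes. The 3 most abundant sorting nexins (Snx5, Snx2 and Snx3) lie between -0.56 and -0.36, while Vps35, the most abundant Vps gene, lies at -0.14.

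No retromer core gene passed, and the FPKM values of all 4 overlapped between the groups. Vps35, the scaffold subunit, measured 94.69, 96.15 and 100.51 FPKM in the CKO and 107.46, 114.26 and 99.1 FPKM in the FLOX libraries. The groups overlapped only through FLOX replicate 5 and CKO replicate 5 (log2 difference -0.14, SE 0.08). Vps29 measured 34.3, 30.45 and 35.26 FPKM in the CKO and 39.67, 38.47 and 34.75 FPKM in the FLOX libraries, and Vps26a 51.4, 49.08 and 52.52 FPKM and 57.25, 57.45 and 52.29 FPKM. In both, FLOX replicate 5 again lay within the CKO range. Their log2 differences were -0.17 (SE 0.09) and -0.12 (SE 0.07). Vps26b, the alternative to Vps26a in the complex, had the opposite sign, at 11.17, 11.44 and 10.31 FPKM in the CKO and 8.62, 10.45 and 8.64 FPKM in the FLOX libraries. FLOX replicate 3 lay inside its CKO range, and the log2 difference was 0.23 (SE 0.10).

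Ratios within a library do not depend on how that library was scaled. The ratio of Vps35 to Vps26a was 1.91 ± 0.0589 in CKO and 1.92 ± 0.0600 in FLOX skin, and that of Vps35 to Vps29 was 2.92 ± 0.208 and 2.84 ± 0.131, each with overlap. The ratio of Vps26a to Vps26b was 4.60, 4.29 and 5.09 in CKO and 6.64, 5.50 and 6.05 in FLOX libraries. Every FLOX library thus held more Vps26a per Vps26b than any CKO library. The ratio of Snx2 to Snx1 was 2.39, 2.08 and 2.68 in CKO and 3.50, 2.94 and 3.18 in FLOX libraries, and that of Snx3 to Snx12 4.48, 4.30 and 4.77 and 5.81, 6.28 and 5.28. Neither pair overlapped, whereas the ratio of Snx5 to Snx6 did, at 2.59 ± 0.191 and 2.80 ± 0.0916. A ratio shows unequal change of its members, not which of them changed, and the pairs were chosen as partners or paralogs after their values had been seen.

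**Figure D4:**
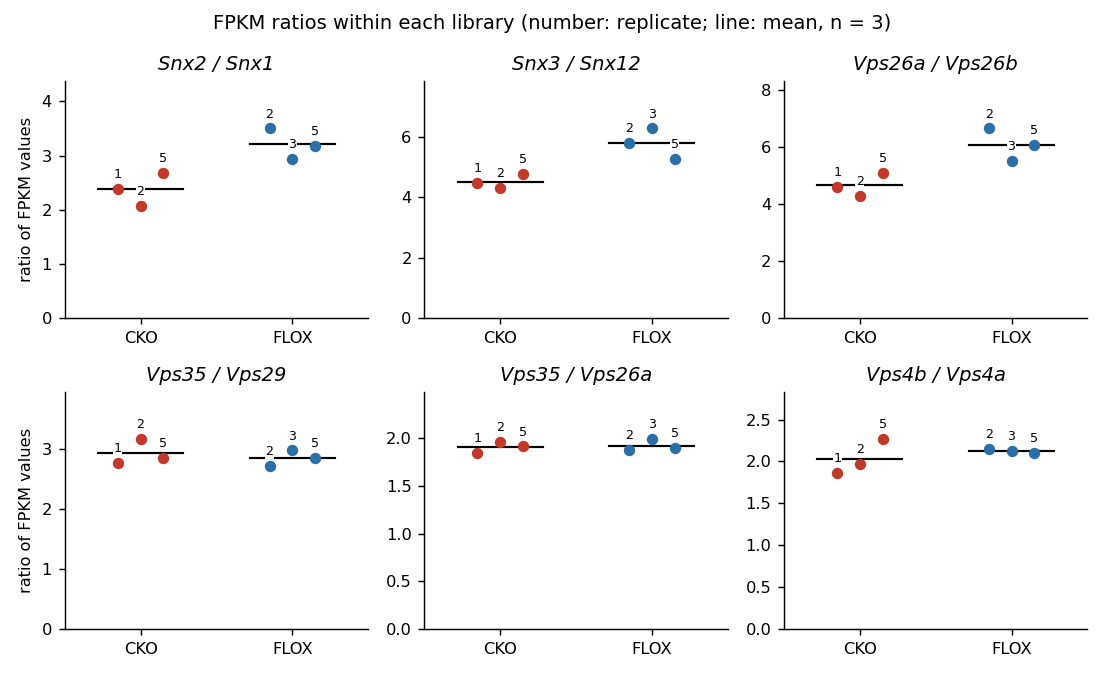
Ratio of FPKM values within each library for 6 gene pairs, CKO and FLOX on the horizontal axis and the ratio from 0 on the vertical axis, with points labelled by replicate number and lines at the mean (n = 3). Snx2/Snx1, Snx3/Snx12 and Vps26a/Vps26b are lower in every CKO library, with means of 2.38 against 3.21, 4.52 against 5.79 and 4.66 against 6.06, and the other 3 ratios overlap.

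Retriever, the relative of retromer that recycles Snx17 cargo and shares Vps29 with it, has Vps35l and Vps26c as its own subunits. Vps35l averaged 13.8 ± 0.788 FPKM in the CKO and 15.1 ± 0.766 FPKM in the FLOX libraries, and Vps26c 20.1 ± 1.71 and 20.4 ± 2.86 FPKM. Both overlapped, and neither passed.

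The tethers HOPS and CORVET share the core of Vps11, Vps16, Vps18 and Vps33a, to which HOPS adds Vps39 and Vps41 and CORVET adds Vps8. Of these 7 genes and Vps33b, 5 had negative and 3 positive differences, none passed, and the median was -0.04. Vps18 measured 7.96, 8.25 and 7.7 FPKM in the CKO and 9.2, 9.62 and 8.27 FPKM in the FLOX libraries. Its groups were apart by a very small gap, between CKO replicate 2 and FLOX replicate 5 (log2 difference -0.16, SE 0.08). Vps41 was the most abundant, at 29.4 ± 2.29 and 30.5 ± 0.582 FPKM, and Vps8 the least, at 4.73 ± 0.767 and 5.25 ± 0.148 FPKM. Vps33b, whose loss in people causes a syndrome with scaling skin, measured 5.73, 6.16 and 7.2 FPKM in the CKO and 5.8, 6.21 and 5.37 FPKM in the FLOX libraries. CKO replicate 5 alone stood above the FLOX range.

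ESCRT complexes sort ubiquitinated cargo into the vesicles of multivesicular endosomes, and the Vps4 ATPases take them apart. The 8 tested members had differences between -0.11 (Vps4b) and 0.08 (Vps37a), and all overlapped. Vps25 of ESCRT-II measured 68.53, 55.26 and 63.25 FPKM in the CKO and 59.67, 66.91 and 61.34 FPKM in the FLOX libraries, so that CKO held both the highest and the lowest library. Vps28 of ESCRT-I averaged 56.4 ± 3.29 and 58.1 ± 3.40 FPKM. Vps4b was about as steady, at 49.6 ± 2.38 and 53.6 ± 2.25 FPKM, and its ratio to Vps4a was 2.03 ± 0.207 in CKO and 2.13 ± 0.0244 in FLOX skin.

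All 5 genes of GARP and EARP, the tethers for transport from endosomes to the Golgi and back to the surface, had small positive differences, from 0.03 (Vps53) to 0.08 (Vps54), and overlapped. The Vps13 genes encode large bridge-like lipid transfer proteins and were the lowest Vps genes in the tested set. Vps13a, the human gene of chorea-acanthocytosis, measured 2.67, 3.17 and 2.71 FPKM in the CKO and 2.52, 2.31 and 2 FPKM in the FLOX libraries, without overlap (log2 difference 0.23, SE 0.10). The other 3 lay between -0.02 and 0.06. Vps45, a partner of early endosomal SNAREs, averaged 5.54 ± 0.526 and 5.46 ± 0.548 FPKM, and Vps72, which in spite of its name encodes a chromatin remodelling subunit, 19.4 ± 2.21 and 18.5 ± 1.66 FPKM.

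Summed over the family, sorting nexins came to 936, 808 and 967 FPKM in the CKO and 1148, 1245 and 1073 FPKM in the FLOX libraries, and Vps genes to 703, 659 and 692 FPKM and 703, 738 and 683 FPKM. The sums of the sorting nexins did not overlap, while those of the Vps genes did. Snx5, Snx2 and Snx3 held 65.6% of the gap of 251 FPKM between the mean sums of the sorting nexins. The median tested sorting nexin of a library lay at 12.0, 13.0 and 13.0 FPKM in the CKO and 12.3, 12.5 and 11.0 FPKM in the FLOX libraries, with overlap. CKO replicate 2 held the lowest value of 16 of the 29 tested sorting nexins and 11 of the 33 Vps genes. The FPKM sum over all genes was lowest in this library too, at 556412, and lay between 584274 and 594987 in the others. FLOX replicate 3 held the highest value of 13 sorting nexins and the lowest value of none. CKO replicate 2 was also the library with the most skeletal muscle RNA. The same library had the highest sum of differentiated epidermis markers (11616 FPKM) and the lowest sums of leukocyte (1562 FPKM) and basophil markers (157 FPKM). The lowest neutrophil sum was that of CKO replicate 1 (2760 FPKM). The 18 muscle markers summed to between 873 and 2274 FPKM in the CKO and between 328 and 682 FPKM in the FLOX libraries, with no gene at 0 in all libraries, a median difference of 1.46 and Myh2 past the threshold (limma adjusted p = 0.047). That call was lost without CKO replicate 2 (0.0932) and without FLOX replicate 2 (0.162), 3 (0.0553) or 5 (0.0865). Markers of differentiated epidermis summed to between 7705 and 11616 FPKM in the CKO and between 5778 and 6881 FPKM in the FLOX libraries, and neutrophil markers to between 2760 and 3608 and between 5206 and 6656 FPKM. Basophil markers summed to between 157 and 228 FPKM in the CKO and between 359 and 568 FPKM in the FLOX libraries. Differences were negative in 13 of 13 neutrophil (median -1.32), 9 of 10 basophil (-0.65) and 2 of 14 differentiated epidermis markers (0.56). Of the 7 basal epidermis markers 0 were negative, with a smaller median of 0.31, and 0 passed. With all libraries 8 neutrophil and 3 basophil markers passed as lower in CKO and 1 differentiated epidermis marker as higher, where 0.954% of tested genes passed. No gene of the table passed without FLOX replicate 2 or without FLOX replicate 3. The part of tissue make-up in the sorting nexin levels was not tested.

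The partners of both families outside the symbol rule gave no call. Of 66 further genes of retromer, WASH, commander, tethers, ESCRT, phosphoinositide enzymes and cargo receptors, 0 passed in limma, where 0.954% of tested genes did, and 8 (12.1%) did at an unadjusted p under 0.05, against 21.6% of tested genes. The list of retromer, WASH and commander partners had 17 of 20 differences negative and a median of -0.10, and the further ESCRT genes 14 of 21 and -0.04. Rab7, the late endosomal GTPase that recruits retromer, averaged 215 ± 11.0 FPKM in the CKO and 255 ± 2.59 FPKM in the FLOX libraries. Cargo receptors were divided. Sorl1, a sorting receptor that retromer returns to the Golgi, measured 7.74, 4.71 and 5.64 FPKM in the CKO and 10.62, 10.2 and 10 FPKM in the FLOX libraries, and its relative Sort1 9.85, 10.93 and 8.99 FPKM and 6.64, 6.74 and 7.84 FPKM. The 2 receptors lay apart in opposite directions, and neither passed. Ankrd27, the adaptor VARP, averaged 8.33 ± 0.0436 and 7.32 ± 0.254 FPKM, and Vamp7, the targeted gene, 19.5 ± 0.352 and 20.9 ± 0.565 FPKM. Every CKO value of Ankrd27 was higher and every CKO value of Vamp7 lower than the FLOX values, as in 15.5% and 11.4% of tested genes. Neither of these 2 genes passed, and Vamp7 in whole skin checks a deletion in basophils only weakly, since other skin cells express it.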

How the data were processed

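Messenger RNA of mouse skin, purified with oligo(dT) beads, gave 6 single-end libraries, per the labels' protocols. The submitters' processing notes name HISAT as the aligner. For its version and for the counter, the build and the annotation the entry is "not given in the sources used here". The authors deposited 1 FPKM value for each gene in each library, per the file headers, rounded to 2 decimals. Read counts could not be recovered from low values at that rounding, so depth is unknown and no counting interval is given. The labels do not say that libraries came from separate animals, and p-values may therefore rest on technical spread. The members and gene lists were chosen with earlier results of these data known.

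Of 18939 genes, the 12994 that reached 1 FPKM in 3 or more libraries were tested with limma 3.58.1 in R 4.3.3 on log2(FPKM + 1), with an intensity trend, two-sided, and Benjamini-Hochberg adjustment over all of them at a threshold of 0.05. This scale understates the change of low genes. No test of a list was made. The fit was tested on simulated data.

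Values in every library are given for the retromer core, members past the threshold, the 3 most positive and 3 most negative tested members and the 2 most abundant of each family. Other members with such values, and Ankrd27, Ptprc and the gene ratios, were chosen for their role after their values were seen. Of partner lists, the genes past the threshold or else among the 2 with the smallest p could be named. The fit was repeated with each library left out, with the replicate number as a block, with no trend or robust fitting, after quantile normalization or median-ratio scaling, with the filter raised to 5 FPKM or dropped, and with a pseudocount of 5 or 0.1. Figures were drawn with matplotlib.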

Additional observations from a re-analysis of the deposited data

How the results depend on the processing

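The count of tested genes past the threshold, 124 as reported, depended on the fit: 1 with no filter, 187 with the filter at 5 FPKM, 0 with quantile normalization (2632 at an unadjusted p under 0.05), 32 with no trend, 10 with robust fitting and 219 with the replicate block. Leaving out single libraries gave 0 to 417 genes, with 0 without FLOX replicate 2 (1997 at an unadjusted p under 0.05) and 0 without FLOX replicate 3 (2399), 3 without FLOX replicate 5, 7 without CKO replicate 2 and 417 without CKO replicate 5. The count of members past the threshold, and of sorting nexins alone, was 1 as reported. It was 0 with no filter, quantile normalization, no trend or robust fitting, where 10 to 13 members had an unadjusted p under 0.05, 1 with the replicate block and 0 to 3 when single libraries were left out. The 3 were Snx2, Snx8 and Snx20, without CKO replicate 5. At an unadjusted p under 0.05 there were 12 members as reported, 5 with the replicate block (all of them sorting nexins, 17.2% of those tested against 15.3% of all genes), 6 without CKO replicate 2 and 8 to 12 without other single libraries. Over all alternatives the log2 difference of Snx20 ran from -0.89 with the replicate block to -0.63 with a pseudocount of 5 FPKM. No Vps gene passed under any alternative listed. The median of the sorting nexins stayed negative, from -0.15 with median-ratio scaling to -0.06 with the replicate block, and that of the Vps genes lay between -0.05 and 0.03, on both sides of 0. Of tested members, 20 of 29 sorting nexins and 21 of 33 Vps genes kept their sign in all alternatives. Changing the filter, the trend or robust fitting leaves the difference of a tested gene as it is, so those alternatives could not alter a sign. Only numbers 2 and 5 occur in both groups, and same-numbered libraries deviated from their group means with correlations of 0.132 and -0.105 across genes, so the block rests on a shared number alone. With unknown depth, a detection limit could not be set for Snx31 or other low members.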
